A study of Mus musculus with 9 samples.

Results

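Aminoacyl-tRNA synthetases are the enzymes that join each amino acid to its transfer RNA. They were taken from the deposited expression table by gene symbol: a capital letter followed by ars, with or without a final 1 or 2, and also Eprs, Farsa, Farsb and Tarsl2. This gave 38 of the 48709 genes in the table, which names many of them by older symbols (Aars for Aars1). By textbook knowledge 19 encode cytosolic enzymes, 17 encode mitochondrial enzymes (symbols ending in 2), and 2, Gars and Kars, encode the enzyme of both places from 1 gene. The 9 RNA-seq libraries come from CD8+ T cells of the mouse, the killer lymphocytes of the immune system. Per the labels there are 3 libraries each of control cells (CTRL) without OVA peptide, of cells with OVA peptide (OVA), and of cells with OVA peptide and citraconate (OVA plus citraconate). The peptide comes from chicken ovalbumin, a common model antigen, and citraconate is an unsaturated dicarboxylate, an isomer of itaconate. The extraction text of 8 libraries names the cells PAS-T, a term it leaves undefined, and that of OVA plus citraconate replicate 1 names OVA-stimulated T cells. For genotype, strain, age, dose and time the sources used here give nothing, and no group received citraconate alone. Nothing in the labels says that replicates are separate cultures or animals, so p-values reflect the spread among these libraries alone, and that spread may be technical.

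Each synthetase recognises its own amino acid and transfer RNAs, and the charged transfer RNA then brings the amino acid to the ribosome. In the cytosol several synthetases sit together in the multisynthetase complex, held by the scaffold proteins of Aimp1, Aimp2 and Eef1e1. Mitochondria translate their own few proteins and import a second, nuclear-encoded set of synthetases. When an amino acid runs short, uncharged transfer RNA activates the kinase GCN2 (gene Eif2ak4), which raises translation of the transcription factor ATF4. Many genes of cytosolic synthetases are known targets of ATF4, which binds C/EBP-ATF response elements. T cells raise protein synthesis when they are activated by antigen.

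The promoters of the members are shown first because several of the genes with the largest changes carry the core letters of that element. RefSeq promoters (GRCm38.p6, 250 bases before to 50 after the gene start) were matched for 28 of the 38 members. Those not matched included Cars, Hars, Hars2, Lars, Nars, Pars2, Rars, Vars and Wars. The letters TGATGNAA, read on both strands, were in the promoters of 5 of the 28 (17.9%): Aars, Gars, Iars, Tars and Yars. The same letters were in 3.97% of all 32851 promoters and in 2.25% of the 11313 promoters of genes tested here. All 5 belong to the 14 matched cytosolic or doubly placed members, and 0 of the 14 matched mitochondrial members had a match. The E-box letters CACGTG, a palindrome, were in 5 of the 28 (Aars, Ears2, Farsb, Iars and Tars), against 7.15% of all promoters and 10.1% of those of tested genes. The sequences below run 5′ to 3′ along the gene, with matches to either motif in capitals, and a match is a description, not a shown site of binding. Stretches of the Aars (chr8:111033692-111033841, plus strand), Tars (chr15:11399659-11399758, minus strand), Gars (chr6:55037901-55038000, plus strand) and Dars promoters (chr1:128417417-128417516, minus strand) end at the last base before the gene start. Dars is shown as the cytosolic member with the largest decrease, and its promoter held neither motif. The Iars (chr13:49682130-49682153, plus strand) and Yars (chr4:129189897-129189920, plus strand) stretches are short windows at the start itself, with only TGATGNAA in capitals.
Aars: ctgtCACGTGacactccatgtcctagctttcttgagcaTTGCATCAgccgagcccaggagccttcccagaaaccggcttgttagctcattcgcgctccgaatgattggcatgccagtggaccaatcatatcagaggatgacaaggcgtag
Tars: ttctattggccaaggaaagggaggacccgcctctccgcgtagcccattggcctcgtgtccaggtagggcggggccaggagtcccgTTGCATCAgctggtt
Gars: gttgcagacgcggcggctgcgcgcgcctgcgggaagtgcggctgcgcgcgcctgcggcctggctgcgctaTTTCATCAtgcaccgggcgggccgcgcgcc
Dars: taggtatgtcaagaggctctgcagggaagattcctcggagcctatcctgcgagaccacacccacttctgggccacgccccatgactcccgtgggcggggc
Iars: gtcagtaTTGCATCAcctccagac
Yars: gagctcagcTGATGCAAcccgacg

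In these sequences the Aars match begins 112 bases before the start, the Tars match 15 bases before it and the Gars match 30 bases before it. The Iars match begins at transcribed base 8 and the Yars match at transcribed base 4. Aars has another match at transcribed base 10, outside the stretch shown. The 50 bases after the start were found in a GENCODE M21 transcript of the gene, on the same strand, for 21 of the 28 members. Positions counted from the start are uncertain to that extent.

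Values are in TPM, a gene's share of the transcripts of its library scaled to a total of 1000000 and corrected for gene length, so that levels can be compared between genes. All 38 members were at or above 1 TPM in every library and all were tested. Recovered reads per library numbered 14754470 to 17384330 over all genes and 54740 to 94191 over the members, from 40 for Pars2 in its lowest library to 8767 for Vars in its highest. In control the cytosolic members lay between 10.3 TPM (Tarsl2, a second threonine enzyme) and 231 TPM (Vars, valine), with a median of 61.3 TPM. Kars (lysine) and Gars (glycine), whose product serves both places, stood at 275 ± 10.8 and 189 ± 3.13 TPM (SD, n = 3). Mitochondrial members were lower, from 2.34 TPM for Mars2 (methionine) to 92.8 TPM for Lars2 (leucine), with a median of 13.3 TPM. The highest 4 in control were Kars, Vars, Gars and Nars (asparagine), and Kars did not overlap Vars, the next in order. Vars lay above Gars without overlap, and Gars above Nars. With OVA the order at the top was Nars, Gars, Kars and Hars, in which the ranges of Nars and Gars overlapped, as did those of Gars and Kars. Replicates lay close together: the coefficient of variation within a group had a median of 5.35% for cytosolic and 7.03% for mitochondrial members. The spread was widest for Lars2, at up to 28.8%, and reached 23.0% for Pars2 with OVA and 22.7% for Ears2 in control.

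**Figure D1:**
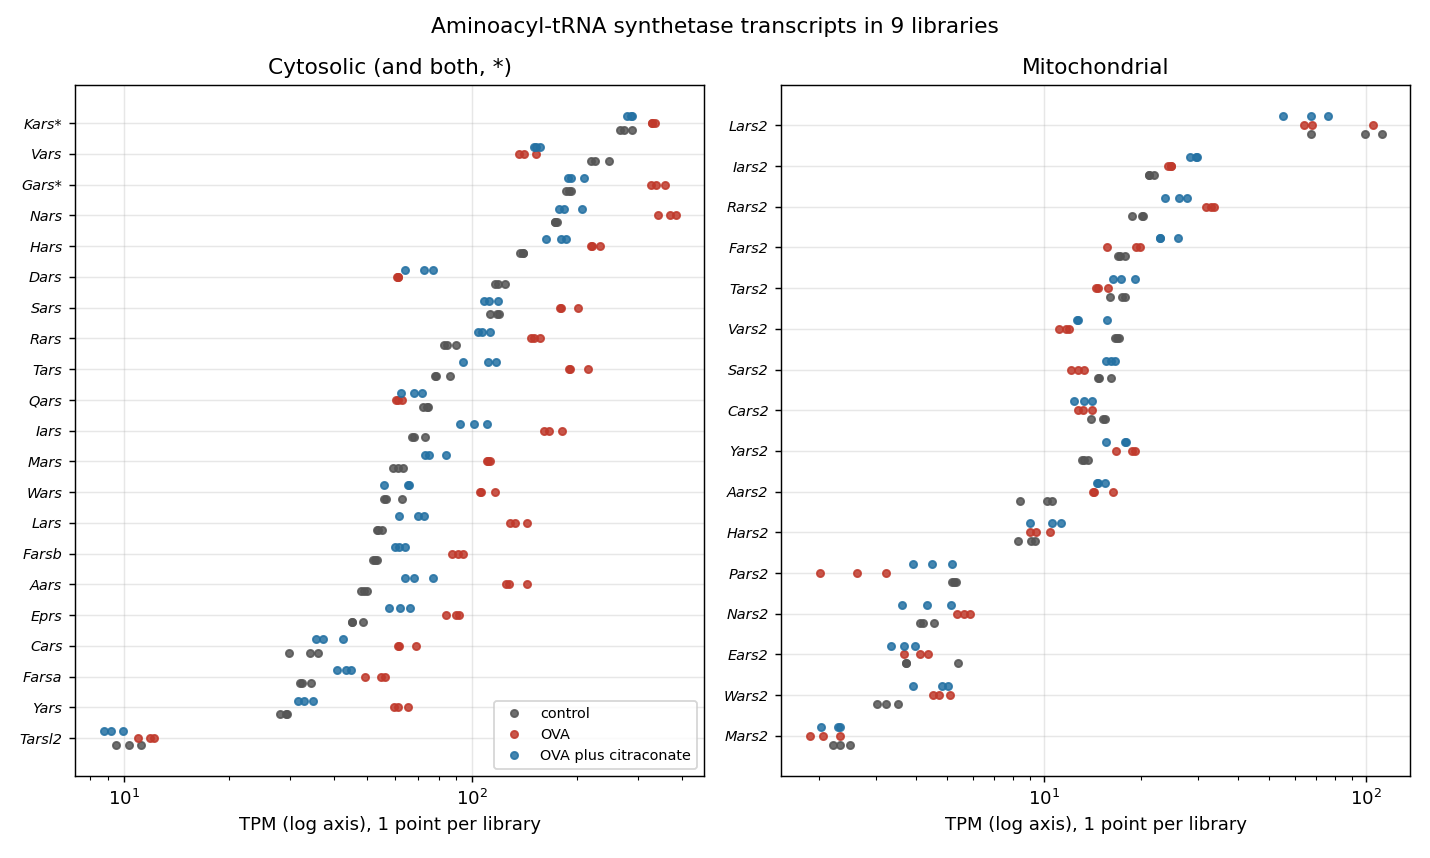
TPM of 37 members in each library, on a log axis; grey points are control, red OVA and blue OVA plus citraconate, and rows are ordered by the control mean. For most cytosolic members the red points lie to the right of the grey and blue ones, with Vars, Dars and Qars to the left of the grey; mitochondrial members show no common order.

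The summed level of the 19 cytosolic members was 1564, 1489 and 1497 TPM in the 3 control libraries, 2329, 2537 and 2393 TPM with OVA and 1534, 1678 and 1624 TPM with OVA plus citraconate. Every OVA library lay above all 6 others, whereas the control and citraconate libraries overlapped. For Gars and Kars together the sums were 479, 462 and 452 TPM in control, 654, 686 and 671 TPM with OVA and 467, 496 and 480.2 TPM with OVA plus citraconate, again with OVA above the others. The 17 mitochondrial members summed to 257, 284 and 297 TPM in control, 262, 263 and 312 TPM with OVA and 287, 291 and 272 TPM with OVA plus citraconate, and all 3 groups overlapped. Lars2 alone gave between 55.1 and 112 TPM of these sums. Without it the mitochondrial sum was 189.8, 184 and 185 TPM in control and 198, 195 and 207 TPM with OVA. With OVA plus citraconate it was 219, 215 and 217 TPM, so that the 3 groups no longer overlapped and lay in the order given. This order is that of TPM as deposited. Scaling libraries by their median ratio divides OVA libraries by 0.937 to 0.984 and OVA plus citraconate libraries by 1.03 to 1.06. The order of OVA and OVA plus citraconate therefore depends on the scaling. The mitochondrial part of all synthetase transcripts was 11.2% to 13.2% in control, 7.55% to 9.25% with OVA and 11.5% to 12.5% with OVA plus citraconate. In bulk RNA a change in the number of cells of a type and a change in RNA per cell cannot be told apart.

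**Figure D2:**
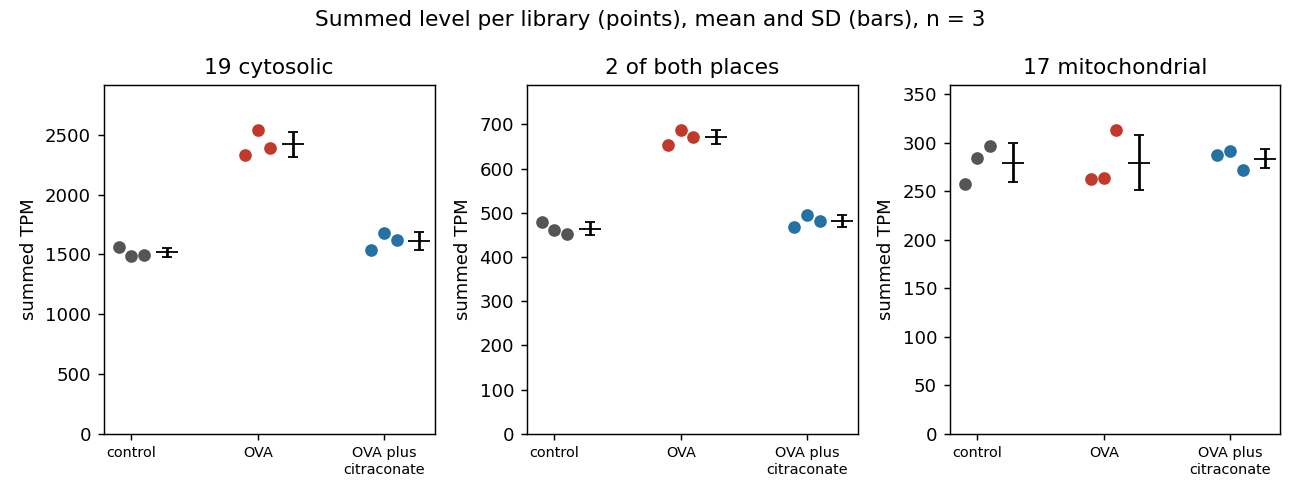
Summed TPM of the cytosolic members, of Gars and Kars, and of the mitochondrial members; each point is a library, and the bars beside them give the mean and SD of the 3 libraries. The cytosolic sums reach 2329 to 2537 TPM with OVA and 1489 to 1678 TPM in the other libraries, while the mitochondrial sums overlap between groups.

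With the peptide, most cytosolic synthetase transcripts rose. Of the 19 cytosolic members 15 rose, 3 fell and Tarsl2 did not pass the test (limma, adjusted p under 0.05), and Gars and Kars both rose. Of the 17 mitochondrial members 6 rose, 4 fell and 7 did not pass. Of all 11971 genes tested, 71.9% were called in either direction, 32.1% higher and 39.8% lower. The excess of lower calls (3837 higher and 4765 lower) turned to 4406 and 4288 when libraries were scaled by their median ratio, to 4310 and 4295 with quantile normalization and to 4521 and 4125 without granzyme genes. The members called in either direction, 30 of 38 (78.9%), were thus near the background, and the share that rose was 78.9% of cytosolic and 35.3% of mitochondrial members beside that 32.1%. The median log2 change was 0.85 over cytosolic members, -0.05 over mitochondrial members and -0.08 over all genes tested. In 23 members every OVA library lay above every control library and in 8 every one lay below, where 33.7% and 41.3% of all genes, 75.0% in all, did so. Changes are on log2(TPM + 1), which understates those of low genes.

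Aars, the alanine enzyme, had the largest increase. It was at 48.7, 47.9 and 49.8 TPM in control and at 125, 144 and 128 TPM with OVA (log2 1.42 ± 0.076 SE, limma adjusted p = 1.67e-07). Its OVA libraries lay far above control, with a fold of means of 2.71. Lars (leucine, also described as a leucine sensor for mTORC1) went from 55, 53.6 and 53.1 TPM to 133, 144 and 128 TPM (log2 1.31 ± 0.069 SE, limma adjusted p = 1.45e-07). Tars, the main threonine enzyme, went from 86.3, 78.4 and 78.8 TPM to 190.5, 214 and 190.3 TPM (log2 1.28 ± 0.084 SE, limma adjusted p = 5.28e-07). In both genes the groups did not overlap, and OVA replicate 2 was the highest library, as it was for Aars. Iars, for isoleucine, went from 73.3, 68.1 and 67 TPM to 161, 182 and 166 TPM (log2 1.27 ± 0.074 SE, limma adjusted p = 2.39e-07). Yars, for tyrosine, went from 29.2, 29.4 and 28 TPM to 59.6, 65.2 and 61.2 TPM (log2 1.07 ± 0.060 SE, limma adjusted p = 1.99e-07). Both again had their highest value in OVA replicate 2 and no overlap with control. The promoters of Aars, Tars, Iars and Yars are among those printed above with TGATGNAA, and Lars had no promoter to search. Eprs, Farsa, Farsb, Kars, Mars and Sars also rose with OVA, and their searched promoters held no TGATGNAA.

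The other cytosolic increases were smaller. Nars (asparagine) rose from 174 ± 0.999 to 365 ± 21.5 TPM (SD, n = 3), Cars (cysteine) from 33.3 ± 3.31 to 63.8 ± 4.26 TPM, and Eprs, the joint glutamate and proline enzyme, from 46.4 ± 1.99 to 88.4 ± 3.76 TPM. Wars, the tryptophan enzyme known to be induced by interferon gamma, rose from 58.4 ± 4.03 to 109 ± 6.16 TPM. Mars (methionine) rose by a log2 of 0.85, Rars (arginine) by 0.81, Hars (histidine) by 0.69 and Sars (serine) by 0.67. Farsa and Farsb encode the α and β chains of the cytosolic phenylalanine enzyme and rose by 0.68 and 0.78. Gars rose from 189 ± 3.13 to 340.2 ± 16.4 TPM, whereas Kars, the most abundant member in control, rose only from 275 ± 10.8 to 330.3 ± 3.66 TPM (log2 0.26). Tarsl2 was at 9.48 to 11.2 TPM in control and 11 to 12.1 TPM with OVA, with overlap (log2 0.16, limma adjusted p = 0.122). It was called higher when libraries were scaled by their median ratio (log2 0.25, limma adjusted p = 0.0156), under the 2 other scalings and with voom on recovered reads (log2 0.23 to 0.28). In the GENCODE annotation some members overlap exons of other genes on the opposite strand. These include Mars with the stress gene Ddit3, Hars with Hars2, Fars2 with Lyrm4, Ears2 with Ubfd1, Iars2 with Rab3gap2 and Yars with C77080. On their own strand Tarsl2 overlaps Tm2d3, and Aars overlaps Exosc6, which was at 0 TPM in every library. No source used here says whether counting used strand, and strand does not separate the overlaps of Tarsl2 and Aars. The values of all these genes are uncertain to that extent.

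Dars, Vars and Qars went the other way. Dars, the aspartate enzyme, was at 124, 119 and 116 TPM in control and at 60.6, 61 and 61.2 TPM with OVA (log2 -0.96 ± 0.065 SE, limma adjusted p = 6.59e-07). Its OVA libraries lay close together, at 0.509 of the control mean. Vars, the valine enzyme, was at 247, 219.7 and 226 TPM and fell to 136, 141 and 153 TPM (log2 -0.68 ± 0.059 SE, limma adjusted p = 3.36e-06). Qars, the glutamine enzyme, fell from 74, 72.3 and 74.7 TPM to 62.8, 61 and 60.5 TPM (log2 -0.26 ± 0.058 SE, limma adjusted p = 0.00235). None of these groups overlapped. Dars and Qars belong to the multisynthetase complex with Eprs, Iars, Kars, Lars, Mars and Rars, so that 6 of its 8 synthetase genes rose and 2 fell. Of the 13 cytosolic or doubly placed members outside the complex 11 rose, Vars fell and Tarsl2 did not pass. By catalytic class, 7 of 9 class I and 9 of 11 class II members rose, Eprs counting as both classes and left aside.

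Mitochondrial members moved in both directions. Pars2, the proline enzyme, had the largest change and went down, from 5.25, 5.33 and 5.18 TPM in control to 2.62, 2.02 and 3.22 TPM with OVA (log2 -0.80 ± 0.14 SE, limma adjusted p = 0.00043). Its values rest on 40 to 111 reads per library. Rars2 (arginine) went up, from 20.1, 20.3 and 18.7 TPM to 31.9, 32.9 and 33.7 TPM (log2 0.71 ± 0.070 SE, limma adjusted p = 8.42e-06). Aars2 (alanine) went from 10.6, 8.43 and 10.2 TPM to 14.3, 14.2 and 16.3 TPM (log2 0.57 ± 0.095 SE, limma adjusted p = 0.000337). Vars2 (valine) went down from 16.8, 16.5 and 17 TPM to 11.9, 11.1 and 11.6 TPM (log2 -0.50 ± 0.088 SE, limma adjusted p = 0.000469). For these 4 genes control and OVA did not overlap. Wars2 (tryptophan), Yars2 (tyrosine) and Iars2 (isoleucine) rose by a log2 of 0.44, 0.42 and 0.19. Nars2 (asparagine) rose by 0.33, and Sars2 (serine) fell by 0.24 on the log2 scale.

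The calls of Nars2 and Sars2 depended on single libraries or on the scaling. Nars2 was not called without control replicate 2 or 3 or without OVA replicate 2 or 3 (log2 0.30 to 0.32). Sars2 was not called without control replicate 2 (log2 -0.20) or under any of the 3 other scalings, with which 2 mitochondrial members, Pars2 and Vars2, fell. The members that did not pass were Cars2, Ears2, Fars2, Hars2, Lars2, Mars2 and Tars2, with log2 changes of -0.23 to 0.10. Of these Tars2 was called lower without control replicate 3 (log2 -0.22), and Hars2 higher with quantile normalization (log2 0.24). Ears2 charges glutamate and, with the amidotransferase subunits of Gatb, Gatc and Qrsl1, also serves glutamine in mitochondria; it was at 3.71 to 5.4 TPM in control and 3.67 to 4.34 TPM with OVA. Lars2 was at 67.5, 99.2 and 112 TPM in control and at 64.1, 67.7 and 105 TPM with OVA, a spread within groups that exceeded the difference between them.

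**Figure D3:**
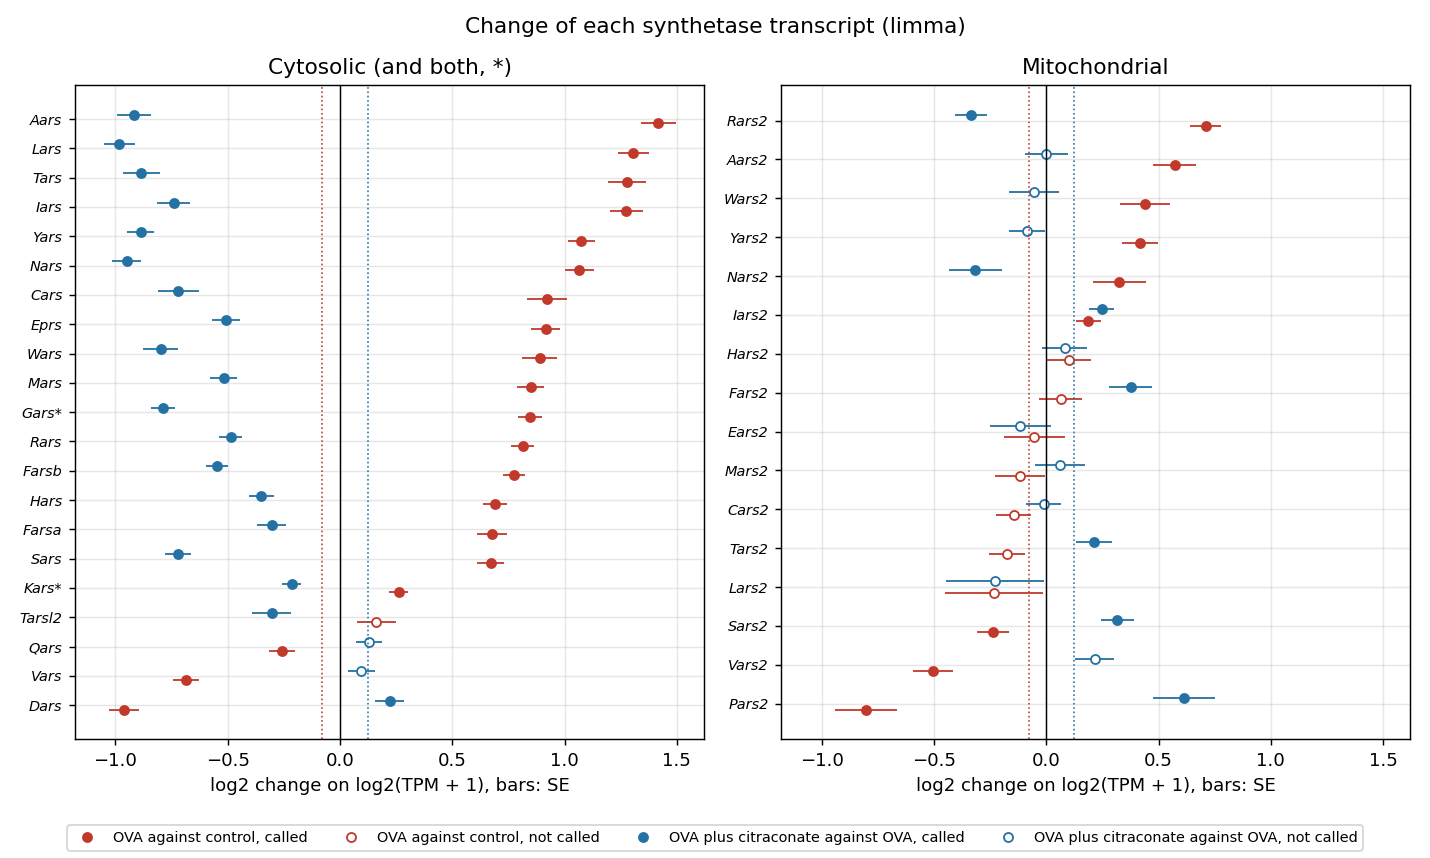
Log2 change of 37 members with its SE for OVA against control (red) and OVA plus citraconate against OVA (blue), both as fitted; filled points passed an adjusted p of 0.05 and dotted lines mark the median of all 11971 genes (-0.08 and 0.12). Both comparisons use the OVA libraries. Cytosolic red points lie mostly between 0.67 and 1.42, with Dars, Vars and Qars below 0.

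Cytosolic and mitochondrial enzymes of the same amino acid were set side by side for 13 amino acids. The cytosolic change exceeded the mitochondrial one in 12 of the 13 pairs with OVA, the exception being Vars with Vars2. The difference in log2 change had a median of 0.85 and ranged from -0.18 (valine) to 1.54 (leucine); these differences were not tested. In 6 pairs both genes rose and in 1 pair, valine, both fell. Serine was the pair with opposite calls (log2 0.67 for Sars and -0.24 for Sars2). Arginine was the pair with the closest changes (0.81 and 0.71). Threonine and leucine combined some of the largest cytosolic increases with mitochondrial genes that did not pass (1.28 and -0.18 for threonine).

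**Figure D4:**
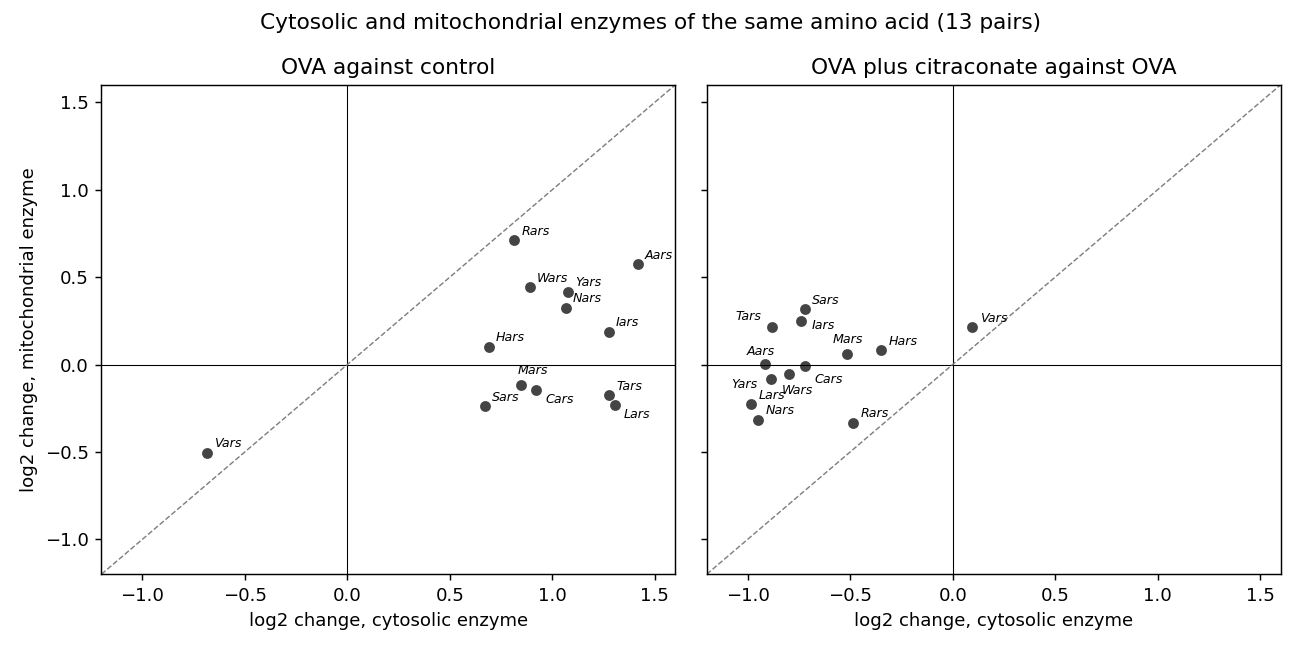
Log2 change of the mitochondrial enzyme (vertical axis) against that of the cytosolic enzyme (horizontal axis) for 13 amino acids, labelled by the cytosolic gene; the dashed line marks equal change. With OVA, 12 points lie below the line; with citraconate added, all 13 lie above it.

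Adding citraconate to the peptide was compared with the peptide alone, which uses the same OVA libraries as the comparison above, so that the directions of both are not independent. Cytosolic synthetase transcripts were lower with citraconate: 16 of 19 cytosolic members fell, 1 rose and 2 did not pass, and Gars and Kars both fell. Of the mitochondrial members 6 rose, 2 fell and 9 did not pass. Of all genes tested 59.0% were called, 37.8% higher and 21.2% lower. The share that fell was 84.2% of the cytosolic members, whereas the 35.3% of mitochondrial members that rose was near the background. In 8 members every citraconate library lay above every OVA library and in 20 every one lay below, beside 41.9% and 24.2% of all genes, 66.1% in all. Over all genes the median log2 change was 0.12, and scaling libraries by their median ratio turned the split of 4522 higher and 2543 lower genes into 3482 and 3589. Log2 changes are from here on stated relative to 0.12 for this comparison unless said to be as fitted, while the p-values test the fitted changes. On this scale the median was -0.67 over cytosolic and -0.06 over mitochondrial members (-0.55 and 0.06 as fitted).

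The largest decrease was that of Lars, from the OVA values given above to 61.5, 72.5 and 69.7 TPM (relative log2 -1.11 ± 0.069 SE, limma adjusted p = 7.15e-06). Nars went from 342, 384 and 370.3 TPM with OVA to 177, 206 and 183 TPM with citraconate added (relative log2 -1.07 ± 0.064 SE, limma adjusted p = 6.18e-06), beside 175, 173 and 173 TPM in control. Aars fell to 64, 77.3 and 68.1 TPM (relative log2 -1.04 ± 0.076 SE, limma adjusted p = 1.38e-05). In each of these genes all citraconate libraries lay below all OVA libraries and above all control libraries. Yars fell to 31.5, 34.8 and 32.9 TPM (relative log2 -1.01 ± 0.060 SE, limma adjusted p = 6.26e-06) and Tars to 94.2, 117 and 111 TPM (relative log2 -1.01 ± 0.084 SE, limma adjusted p = 2.5e-05). Of the citraconate libraries replicate 2 was the highest in all 5 genes.

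Wars fell from 109 ± 6.16 to 62.4 ± 5.67 TPM (SD, n = 3), Gars from 340.2 ± 16.4 to 197 ± 11 TPM, Iars from 169.5 ± 10.6 to 101 ± 9.1 TPM, and Sars from 187 ± 12.8 to 113 ± 5.3 TPM. Cars, Farsb, Mars, Eprs and Rars fell by a relative log2 of 0.61 to 0.84. Hars (-0.47), Farsa (-0.43), Tarsl2 (-0.43) and Kars (-0.34) had the smallest decreases. Dars alone among the cytosolic members rose, from 60.6, 61 and 61.2 to 77.1, 64.3 and 72.9 TPM, which is a relative log2 of 0.10 (limma adjusted p = 0.0146). That call was lost when libraries were scaled by their median ratio (limma adjusted p = 0.220), with granzyme genes left out (0.0596), and without OVA plus citraconate replicate 1 (0.0600). Qars was at 60.5 to 62.8 TPM with OVA and 62.3 to 71.9 TPM with citraconate (relative log2 0.01), and among the alternatives was called higher only without OVA plus citraconate replicate 2 (limma adjusted p = 0.0134). Vars was at 136 to 153 and 150.2 to 157 TPM and did not pass (relative log2 -0.03).

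Among mitochondrial members Pars2 had the largest change, from 2.62, 2.02 and 3.22 TPM with OVA to 5.17, 4.47 and 3.9 TPM (relative log2 0.49 ± 0.14 SE, limma adjusted p = 0.00352). Its groups did not overlap. Rars2 went the other way, from 31.9, 32.9 and 33.7 TPM to 23.8, 27.7 and 26.2 TPM (relative log2 -0.46 ± 0.070 SE, limma adjusted p = 0.00238). Fars2, the phenylalanine enzyme, rose from 19.8, 15.6 and 19.3 TPM to 22.9, 26 and 22.8 TPM (relative log2 0.25 ± 0.094 SE, limma adjusted p = 0.00626), beside 17 to 17.8 TPM in control. Sars2, Iars2 and Tars2 were also called higher, with relative log2 changes of 0.19, 0.12 and 0.09. Under median-ratio scaling Iars2 (limma adjusted p = 0.111) and Tars2 (0.307) were not called, which left 4 mitochondrial members higher. Quantile normalization left 3, since Sars2 (limma adjusted p = 0.0600) was then not called either. Tars2 was also not called without control replicate 1 or 2, OVA replicate 1 or 2, or OVA plus citraconate replicate 1 or 3 (log2 0.15 to 0.22 as fitted), nor with the replicate block (limma adjusted p = 0.0603). Nars2 was called lower (relative log2 -0.44, limma adjusted p = 0.0404). It was not called with the replicate block (0.0524), nor on leaving out any 1 library except OVA plus citraconate replicate 1 (log2 -0.35 to -0.21 as fitted). Aars2, Cars2, Ears2, Hars2, Lars2, Mars2, Vars2, Wars2 and Yars2 did not pass. Among the alternatives Vars2 was called higher without OVA plus citraconate replicate 2 (log2 0.27 as fitted). Ears2 was called lower with quantile normalization (log2 -0.33 as fitted). In all 13 amino acid pairs the cytosolic change lay below the mitochondrial one, with a difference in log2 change of -0.74 at the median, -0.12 for valine and -1.10 for threonine.

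Set against control, OVA plus citraconate libraries had 11 of 19 cytosolic members higher, 2 lower (Dars and Vars) and 6 not called. Of all genes tested 59.4% were called in this comparison, 33.1% higher and 26.3% lower. In 19 members all citraconate libraries lay above control and in 5 all lay below, beside 37.3% and 30.1% of all genes, 67.4% in all. The largest of these differences were those of Iars (69.4 ± 3.35 TPM in control and 101 ± 9.1 TPM; log2 0.53 ± 0.074 SE, limma adjusted p = 0.000152) and Aars (log2 0.50 ± 0.076 SE, limma adjusted p = 0.000296). Eprs, Tars, Farsa, Hars, Mars, Rars, Lars and Farsb were higher by a log2 of 0.23 to 0.41. Yars had the smallest called difference (log2 0.19). That call was lost without control replicate 3 (log2 0.17) or OVA plus citraconate replicate 2 (log2 0.15). It was also lost under median-ratio scaling (log2 0.15) and with quantile normalization (log2 0.13). Dars was lower than in control (log2 -0.74 ± 0.065 SE, limma adjusted p = 7.48e-06), as did Vars (log2 -0.59 ± 0.059 SE, limma adjusted p = 1.84e-05). Gars, Kars, Cars, Nars, Qars, Sars, Tarsl2 and Wars did not pass, with log2 differences from -0.14 to 0.20. Cars was called higher without control replicate 1 (log2 0.26), without granzyme genes (log2 0.24) and with voom on recovered reads (log2 0.23). Qars was called lower without OVA plus citraconate replicate 1 (log2 -0.17), under median-ratio scaling (log2 -0.17) and with quantile normalization (log2 -0.18). Tarsl2 was called lower with quantile normalization (log2 -0.19). Of the mitochondrial members 7 were higher, among them Aars2, Fars2, Iars2, Rars2, Wars2 and Yars2, and Vars2 was lower. Aars2 stood at 9.73 ± 1.14 TPM in control, 14.9 ± 1.21 TPM with OVA and 14.9 ± 0.461 TPM with OVA plus citraconate. Iars2 stood at 21.4 ± 0.427, 24.5 ± 0.249 and 29.3 ± 0.795 TPM in the same order, and the 3 groups did not overlap. Vars2 was not called without OVA plus citraconate replicate 2 or 3, which left 0 mitochondrial members lower, and Lars2 was called lower without control replicate 1 (log2 -0.67) or OVA replicate 3 (log2 -0.46). Hars2 was called higher without OVA plus citraconate replicate 2 (log2 0.27), and Cars2 lower with quantile normalization (log2 -0.23).

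The partners of the synthetases were read in the same fits. Of the scaffolds of the multisynthetase complex, Eef1e1 rose with OVA from 70.1 ± 0.91 to 120.4 ± 8.59 TPM (SD, n = 3) and was at 84.6 ± 4.29 TPM with citraconate added. Aimp2 was at 62.2 ± 3.8, 76.8 ± 0.603 and 63.1 ± 2.22 TPM in the same order, rising and falling past the test, while Aimp1 passed neither test (128 ± 5.43, 127 ± 7.32 and 129.7 ± 7.45 TPM). Of 10 genes for tRNA editing, selenocysteine and tRNA maturation, 4 rose, 3 fell and 3 did not pass with OVA (median log2 -0.09), and 4 rose and 4 fell with citraconate added. Elac2, which trims the ends of tRNA precursors, rose from 29.1 ± 2.35 to 76.3 ± 2.31 TPM, and Xpot, which exports tRNA from the nucleus, from 35.7 ± 3.56 to 86.8 ± 5.78 TPM. Of 9 cytosolic elongation and termination factors 5 rose and 1, Eef1a1, fell with OVA (median 0.32 as fitted). With citraconate added 3 rose and 6 fell (median -0.20 as fitted and -0.33 relative). Eef1a1, which carries charged tRNA to the ribosome, went from 20301 ± 804 to 15579.9 ± 443 TPM. Of 15 mitochondrial translation factors 9 rose, 1 fell and 5 did not pass with OVA (median 0.48), and with citraconate added 1 rose and 2 fell. Tufm, the mitochondrial counterpart of the carrier of charged tRNA, rose from 109.6 ± 4.05 to 151 ± 9.89 TPM. These medians with OVA stand beside -0.08 over all genes tested. Counts for these lists and those below stand beside 32.1% of all genes higher and 39.8% lower with OVA. With citraconate added to the peptide the shares of all genes were 37.8% and 21.2%.

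The genes of the GCN2 and ATF4 route form a list chosen when its rise with OVA was known from these data, so it is no independent evidence of direction. Of 27 tested genes 22 rose and 3 fell with OVA (median log2 0.88 as fitted). With citraconate added 2 rose and 20 fell (median -0.69 as fitted and -0.81 relative). Atf4 itself was at 453 ± 4.99 TPM in control, 625 ± 5.65 TPM with OVA and 423 ± 12.4 TPM with OVA plus citraconate. Its log2 change was 0.46 as fitted with OVA, and -0.56 as fitted (-0.68 relative) with citraconate added. Mthfd2, an enzyme of mitochondrial folate metabolism, was at 60.4 ± 1.4, 171 ± 6.38 and 113 ± 7.68 TPM. Asns, asparagine synthetase, was at 55 ± 2.81, 223 ± 20.4 and 76.6 ± 5.73 TPM. Cth, of cysteine synthesis, was at 0.201 ± 0.174, 20.1 ± 1.14 and 8.67 ± 0.463 TPM. Ddit4, Cebpb and Stc2 were the 3 that fell with OVA. Eif2ak4, the gene of the sensor GCN2, was at 10.2 ± 1.08 TPM in control, 12 ± 0.512 TPM with OVA and 14.9 ± 0.0877 TPM with citraconate added, and was called higher in both comparisons. ATF4 is controlled mainly through its translation, which RNA levels do not show.

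Since Wars is known as an interferon gamma target, genes of that signal were read beside it. Of 9 tested genes 1, Ifng, rose and 7 fell with OVA (median log2 -1.35), and 7 rose and 2 fell with citraconate added. Irf1, a transcription factor induced by interferon gamma, was at 125 ± 16.2 TPM in control, 21.6 ± 2.01 TPM with OVA and 68.2 ± 13.8 TPM with OVA plus citraconate. Ifngr1, a chain of the receptor, was at 457 ± 16.2, 129 ± 10.1 and 233 ± 27.2 TPM. Wars stood beside these at 58.4 ± 4.03, 109 ± 6.16 and 62.4 ± 5.67 TPM. Ido1, the interferon-induced enzyme that degrades tryptophan, was listed at 0 in every library.

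Cell type markers moved along with the groups. The 17 T cell markers summed to 11959 to 12641 TPM in control, 5986 to 7959 TPM with OVA and 11489 to 12699 TPM with OVA plus citraconate. Cd8a, of the CD8 coreceptor, was at 211 to 224, 103 to 177 and 280.4 to 348 TPM. The 13 natural killer markers, several of which killer T cells also make, summed to 1580 to 2430.4 TPM, 12988 to 21419 TPM and 4531 to 7536 TPM in the same order, and Ncr1 was listed at 0 in the control libraries. The 9 B cell markers summed to 226 to 261 TPM in control, 58.1 to 88.5 TPM with OVA and 55.9 to 88.7 TPM with citraconate added. The 12 myeloid markers summed to 14.6 to 18.3 TPM, 25.9 to 30.6 TPM and 19.8 to 28.6 TPM, with Clec9a, S100a8 and S100a9 listed at 0 throughout. The 7 erythroid and platelet markers summed to 7.66 to 9.22 TPM, 3.93 to 5.28 TPM and 10.6 to 13.1 TPM, with Hbb-bs and Ppbp among those listed at 0. The 6 CD4 and regulatory T cell markers, most of it Il2ra, summed to 328 to 416 TPM, 663 to 819 TPM and 553 to 743 TPM. Of the 5 tested, however, 1 was called higher and 4 lower with OVA (median log2 -0.68). Against control, 2 were higher and 3 lower with OVA plus citraconate (median log2 -0.76). The 7 stromal and epithelial markers, most of it Pecam1, summed to 44.7 to 48.4 TPM, 264 to 387 TPM and 64.9 to 84.7 TPM. The part of these in the synthetase changes was not tested. Leaving out any 1 of the 9 libraries left 15 cytosolic synthetases higher and 3 lower with OVA, and 16 lower with citraconate added.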

How the data were processed

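The deposited table holds TPM made by the authors, with 1 column per library; each column sums to 1000000, so TPM was taken as the unit although the table is named for FPKM. Trim Galore 0.5.0, Salmon and GRCm39 are named in the submitters' processing notes; no source used here gives the annotation or whether counting used strand. Read counts per library were worked back from the deposited TPM: each of the 16734 genes detected in 2 or more libraries came out whole (100%) within 0.0001 reads or 3e-08 of the count. Whole numbers do not look like the estimated counts of Salmon, and no source used here explains this.

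TPM were changed to log2(TPM + 1) and the 11971 genes whose mean reached 1 TPM in 1 or more groups were fitted with limma 3.58.1 in R 4.3.3 (lmFit, eBayes with trend) over all 9 libraries, with 6 residual degrees of freedom. P-values are two-sided and Benjamini-Hochberg adjusted over all tested genes of a comparison, called under 0.05. Steps were tested on simulated data. Members and lists were chosen with earlier results of these data known. Values in every library are given for the 5 cytosolic or doubly placed and 4 mitochondrial members with the largest called changes and for members against most of their class; of each list the up to 4 genes with the smallest adjusted p with OVA (markers: the highest means) could be named. Atf4, Eif2ak4, Ddit4, Cebpb, Stc2, Eef1a1, Ido1, Cd8a and Ncr1 lie outside that rule and were chosen after their values were seen, as was the mitochondrial sum without Lars2. Of the members, 1, counted in the totals, is not reported here by name or in the figures and pairs. Alternatives were 3 scalings (median of ratios, quantiles, no granzyme genes), a pseudocount of 0.1, no filter, no trend, only the groups compared, a replicate block, each library left out, and, added after seeing the data, voom on the recovered reads.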

Additional observations from a re-analysis of the deposited data

How the results depend on the processing

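Of the counts of members called, those of cytosolic members with OVA (15 to 16 higher, 3 lower) and of cytosolic members lower with citraconate added (16) held under all 18 alternatives. Counts of a few weak calls moved. Under median-ratio scaling, mitochondrial members lower with OVA were 2, and with citraconate added against OVA 4 members in all and 0 cytosolic members were higher. With quantile normalization 2 mitochondrial members were lower with OVA; against OVA, 4 members in all and 3 mitochondrial members were higher; and against control 6 members, 4 cytosolic and 2 mitochondrial, were lower. Without granzyme genes 2 mitochondrial members were lower with OVA and 0 cytosolic members higher against OVA. Without a filter, with only the 2 groups compared and with the replicate block, 1 mitochondrial member was lower against OVA. Leaving out 1 library gave 2 to 4 mitochondrial members lower with OVA, and against OVA 0 to 2 cytosolic members higher and 1 to 2 mitochondrial members lower. Against control it gave 0 to 2 mitochondrial members lower. For single members, 6, 8 and 9 of 38 changed their call in at least 1 alternative in the 3 comparisons (OVA against control, citraconate added against OVA, and against control), and 0 changed direction while called. The cause was not tested. Deviations correlated above 0.1 in 3 of 9 same-numbered pairs of libraries (-0.01 to 0.30). The same held for 2 of 18 pairs with different numbers (-0.25 to 0.17). What a shared replicate number stands for was not tested. The replicate block changed the calls of Nars2 and Tars2 alone among members. Depth was lowest for Pars2, at 40 to 111 reads per library.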
